A study of Mus musculus with 6 samples.

Results

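ATP-binding cassette (ABC) genes were compared between 3 Phf6 wild-type and 3 Phf6 knockout mouse T-cell acute lymphoblastic leukaemias (T-ALL), a leukaemia of immature T cells. The genes were taken by symbol, from Abca to Abcg followed by a digit with pseudogenes left out, and by a mean of at least 5 normalised reads over the 6 libraries. This gave 34 members among 23306 genes, out of 39 such symbols in the table. A normalised read is a read count divided by a size factor of its library. Phf6 encodes a chromatin-associated zinc finger protein and is a tumour suppressor gene in T-ALL.

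All 6 samples were polyA RNA of isogenic T-ALL tumours of strain C57BL/6 taken from bone marrow. The Phf6_WT group (WT1 to WT3) kept the gene, and the Phf6_KO group (KO1 to KO3) had it conditionally deleted by a tamoxifen-inducible Cre recombinase. Mice received tamoxifen or corn oil by intraperitoneal injection. Which samples received which agent, the promoter driving Cre, the exons removed, the oncogene behind the leukaemia and the age of the mice were not given in the sources used here. An effect of tamoxifen and an effect of the deletion cannot be told apart if the groups differed in both. Whether the 3 samples of each group were from separate animals was likewise not given, so p-values measure only the spread between these samples, which may be technical.

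ABC proteins bind and hydrolyse ATP in a pair of conserved domains, and most use that energy to move lipids, metabolites, peptides or drugs across a membrane. Abca members mainly handle sterols and phospholipids, Abcb and Abcc include the pumps that expel drugs from leukaemia cells, Abcd members sit mostly in peroxisomes, and Abcg includes sterol and drug exporters. Abce and Abcf proteins lack membrane-spanning domains and work on ribosomes and translation, so they are family members by sequence and not transporters.

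Phf6 had 5508, 4240 and 5075 normalised reads in WT1 to WT3 and 1781, 2337 and 1755 in KO1 to KO3. The KO level was 0.396 times the WT level, with a log2 fold change of -1.34 ± 0.13 (SE; adjusted p in limma = 0.00184). Libraries held 46067511 to 54953145 reads in named genes. T cell markers were detected in every library. Their summed levels were 6475 to 6899 CPM (reads scaled to a common library size) in WT and 5765 to 6682 in KO. Of these 13 markers 2 fell and 0 rose, and 3 had a positive log2 fold change, with a median of -0.21. In limma 6 had an unadjusted p under 0.05. DESeq2 called 3 fallen, edgeR 2 and limma without KO3 1. Genes of neutrophils moved with the groups: their 19 markers summed to 130, 489 and 209 CPM in WT1 to WT3 and 1313, 1374 and 1037 in KO1 to KO3, none was at 0 in any library, and 9 of 19 rose. All 19 had a positive log2 fold change and 18 an unadjusted p under 0.05; edgeR called 17 risen, DESeq2 18, limma without WT2 18 and limma without KO3 2. Monocyte and macrophage markers summed to 44.7 to 100.9 CPM in WT and 163 to 281 in KO, with 6 of 15 risen, and stem and progenitor markers to 5.47 to 7.02 and 15.2 to 17.0 CPM, with 5 of 6 risen. B cell markers summed to 345 to 430 CPM in WT and 241 to 310 in KO, while 7 of 10 rose and 1 fell. Without KO3 the risen genes numbered 0 for the monocyte and macrophage list, 1 for the stem and progenitor list and 0 for the B cell list. Summed levels in WT and KO were 377 to 465 and 342 to 398 CPM for erythroid, 4.68 to 5.04 and 7.81 to 11.9 for megakaryocyte, 496 to 609 and 664 to 820 for stroma and endothelium, and 33.5 to 35.2 and 35.5 to 43.2 for NK and dendritic cell markers. Of these last 4 lists, 0 of 11, 1 of 3, 1 of 5 and 1 of 7 tested genes rose, and 0, 0, 1 and 1 fell. Over all genes tested, 5.32% rose and 3.43% fell. For the erythroid list 1 gene had an unadjusted p under 0.05, with 0 called by edgeR and 1 by DESeq2. These are bulk samples, in which fewer cells of a type and less RNA per cell cannot be told apart.

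The test was limma on log2(value + 2), with Benjamini-Hochberg adjustment at 0.05 over 17993 genes that reached 10 normalised reads in at least 3 libraries. Of the 34 members 31 were tested, and Abca6, Abca9 and Abca17 lay below that filter. Abcd2, Abca1, Abca13 and Abca3 rose, which is 4 of 31 members beside 5.32% of all genes tested. Abce1 and Abcf2 fell, 2 of 31 beside 3.43% of all genes, so 6 of 31 members were called beside 8.75% of all genes. The median log2 fold change was -0.0040 over the tested members and -0.013 over all genes tested, with 15 members above and 16 below 0. KO libraries all lay above WT libraries for 5 of 31 members (15.0% of all genes tested) and all below for 6 (16.2%). The 4 that rose lay under a mean of 1000 normalised reads, with Abca3 nearest to it at 897. Under that mean 4 of 15 members rose and 0 fell, beside 7.69% and 1.66% of all genes at that level. At 1000 or more 0 of 16 rose and 2 fell, beside 2.07% and 5.87%.

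Leaving out KO3 ended all 6 calls, while all genes went from 1575 to 253 calls (1.41%). Of the called genes 60.8% rose, against 70.0% with upper quartile scaling and 80.2% with library totals alone; the same 4 members rose under both of these scalings (5.54% and 6.79% of all genes) and 0 fell (2.37% and 1.67%). The share of all genes called was 7.75% in edgeR, 12.4% in DESeq2, 8.96% with a pseudocount of 8 and 14.3% with the replicate number as a block, and with no filter on low values 2.57% fell. The share called was 2.58%, 10.8% and 3.70% without WT1, WT2 and WT3, and 6.23% and 5.48% without KO1 and KO2.

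**Figure D1:**
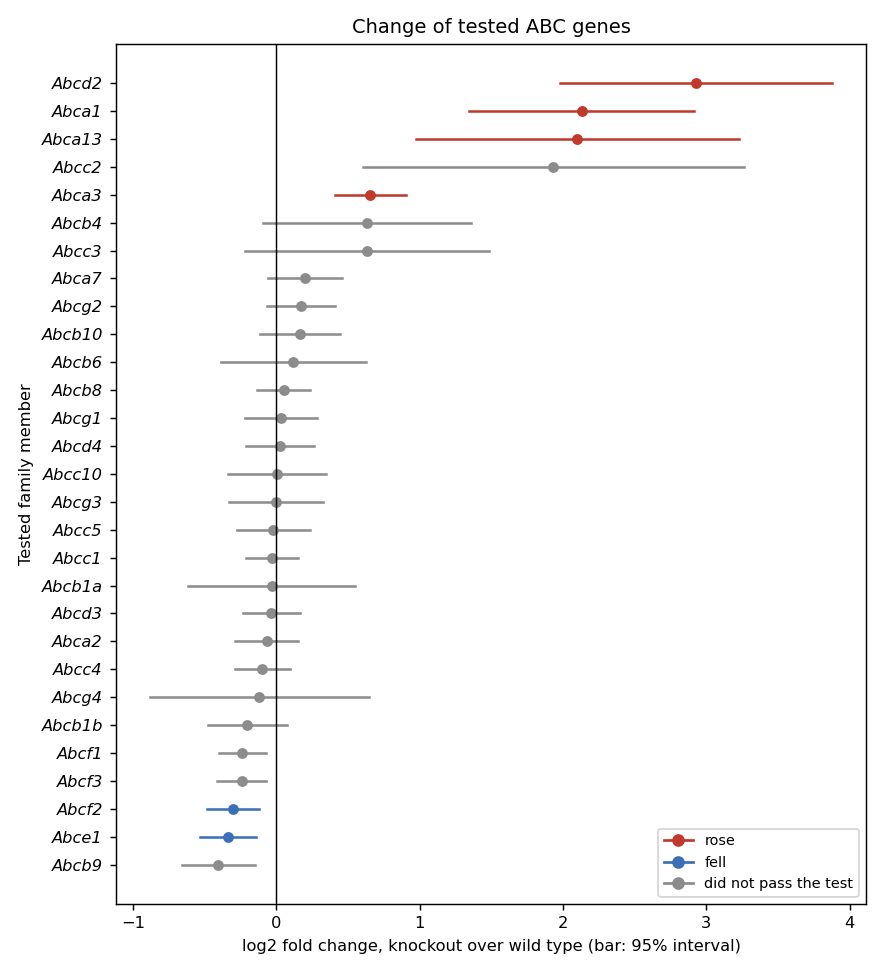
Log2 fold change of Phf6 KO over WT for tested ABC members, ordered by fold change, with bars for the 95% interval of each gene from limma; red marks members that rose, blue those that fell and grey those that did not pass. Abcd2, Abca1, Abca13 and Abca3 lie to the right of 0, Abce1 and Abcf2 to the left, and most others have intervals that span 0.

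Promoters are shown for the 5 called members that have an entry in the RefSeq promoter table of GRCm38.p6, and for Abca17, the divergent neighbour of Abca3. Each runs from 250 bases before to 50 bases after a transcription start, 5′ to 3′ on the gene's strand. Capitals mark exact matches on either strand to 4 motifs: the E-box CACGTG, the cyclic AMP response element TGACGTCA, the CCAAT box and the GC box, whose letters are GGGCGG. No match to any of them overlapped a match to another in the promoters shown.
Abca1, chr4:53159846-53160145, minus strand: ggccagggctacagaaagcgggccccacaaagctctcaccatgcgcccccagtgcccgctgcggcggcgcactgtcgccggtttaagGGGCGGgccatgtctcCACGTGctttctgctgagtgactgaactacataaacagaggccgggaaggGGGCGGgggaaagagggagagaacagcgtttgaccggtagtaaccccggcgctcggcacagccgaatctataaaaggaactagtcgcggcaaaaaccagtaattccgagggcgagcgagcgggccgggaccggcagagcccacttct
Abca13, chr11:9191692-9191991, plus strand: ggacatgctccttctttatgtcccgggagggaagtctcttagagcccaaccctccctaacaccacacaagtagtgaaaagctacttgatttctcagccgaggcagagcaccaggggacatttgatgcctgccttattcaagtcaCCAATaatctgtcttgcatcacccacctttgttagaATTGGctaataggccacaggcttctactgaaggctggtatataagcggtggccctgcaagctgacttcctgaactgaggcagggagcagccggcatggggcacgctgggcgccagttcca
Abca3, chr17:24351773-24352072, plus strand: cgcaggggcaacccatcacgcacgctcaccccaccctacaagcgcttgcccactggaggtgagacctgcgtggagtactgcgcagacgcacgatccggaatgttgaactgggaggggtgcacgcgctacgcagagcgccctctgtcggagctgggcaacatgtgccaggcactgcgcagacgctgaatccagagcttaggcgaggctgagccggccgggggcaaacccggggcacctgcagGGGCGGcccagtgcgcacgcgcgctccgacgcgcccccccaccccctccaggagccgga
Abca17, chr17:24351010-24351309, minus strand: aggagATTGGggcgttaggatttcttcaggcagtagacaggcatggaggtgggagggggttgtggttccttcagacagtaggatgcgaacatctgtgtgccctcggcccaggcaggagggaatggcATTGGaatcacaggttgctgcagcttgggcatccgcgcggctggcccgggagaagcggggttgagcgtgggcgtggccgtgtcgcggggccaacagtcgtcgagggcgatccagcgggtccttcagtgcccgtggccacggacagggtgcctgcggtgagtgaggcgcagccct
Abce1, chr8:79711691-79711990, minus strand: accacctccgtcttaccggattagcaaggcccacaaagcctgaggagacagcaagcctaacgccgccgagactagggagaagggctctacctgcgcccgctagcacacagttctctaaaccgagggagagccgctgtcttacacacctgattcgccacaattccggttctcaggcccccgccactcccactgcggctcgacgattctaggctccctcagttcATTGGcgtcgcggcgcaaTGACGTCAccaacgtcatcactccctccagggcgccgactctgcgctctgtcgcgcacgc
Abcf2, chr5:24577418-24577717, minus strand: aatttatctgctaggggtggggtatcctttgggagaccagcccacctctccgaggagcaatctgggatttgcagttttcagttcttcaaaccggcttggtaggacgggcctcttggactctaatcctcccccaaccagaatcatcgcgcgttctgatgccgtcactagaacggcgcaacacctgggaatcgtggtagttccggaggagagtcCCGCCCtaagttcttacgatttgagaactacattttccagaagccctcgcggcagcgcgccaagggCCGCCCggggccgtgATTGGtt
The E-box was present in 7.15% of the 32851 promoters in the table, the cyclic AMP response element in 1.79%, the CCAAT box in 37.4% and the GC box in 35.7%. Among the 30 promoters of the 24 members with an entry, 3, 2, 11 and 18 held them. The E-box was in Abca1 and the cyclic AMP response element in Abce1. These matches are letters in a window and were not tested as binding sites. Abcd2 had no entry.

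The Abca subfamily of lipid exporters held 3 of the 4 risen members. Abca1 (ENSMUSG00000015243, GRCm38 chr4:53030787-53159895, minus strand) passes cholesterol and phospholipid from the cell to apolipoprotein A-I and is a classic target of the liver X receptors (LXR). It had 44.0, 24.7 and 16.3 normalised reads in WT1 to WT3 and 88.7, 136 and 148 in KO1 to KO3. Every KO library lay above every WT library. WT averaged 28.3 ± 14.2 (SD, n = 3) against 124 ± 31.5 in KO (SD, n = 3), for a log2 fold change of 2.13 ± 0.35 (SE; adjusted p in limma = 0.00803; edgeR adjusted p = 0.0143). Without KO3 it was 1.99 (limma, adjusted p = 0.0674).

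Abca13 (ENSMUSG00000004668, chr11:9191942-9684259, plus strand) is the member with the longest exon sequence, 19737 bases, and encodes a very large protein linked to cholesterol uptake into vesicles. It had 21, 89.9 and 35.2 normalised reads in WT1 to WT3 and 176, 243 and 140 in KO1 to KO3. The groups did not overlap, but WT2 was 3.19 times the mean of the other WT libraries. WT averaged 48.7 ± 36.3 (SD, n = 3) against 187 ± 52.1 in KO (SD, n = 3), for a log2 fold change of 2.10 ± 0.48 (SE; adjusted p in limma = 0.0385; edgeR adjusted p = 0.0406). The call held in only 1 of the 6 fits that left out a library, the fit without WT2, where the log2 fold change was 2.65 (limma, adjusted p = 0.000767). Without WT1 it was 1.65, without WT3 2.00, without KO1 2.12, without KO2 1.89 and without KO3 2.29, with limma adjusted p from 0.0869 to 0.152.

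The neutrophil marker sum given above was also highest among WT libraries in WT2, at 489 CPM against 130 and 209. Abca1 was highest among WT libraries in WT1, at 44.0 normalised reads with 24.7 in WT2. The part of neutrophil genes in the results for Abca13, Abca1 and Abcd2 was not tested.

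Abca3 (chr17:24351950-24410201, plus strand) loads phospholipid into lamellar bodies, best known in lung surfactant cells. It stood at a much higher level than Abca1 and Abca13, with 698, 645 and 746 normalised reads in WT1 to WT3 and 1171, 998 and 1122 in KO1 to KO3. The groups were well apart and each was tight. WT averaged 696 ± 50.4 (SD, n = 3) against 1097 ± 89.3 in KO (SD, n = 3), for a log2 fold change of 0.65 ± 0.11 (SE; adjusted p in limma = 0.00893; edgeR adjusted p = 0.0119). Without KO3 it was 0.64 (limma, adjusted p = 0.0577). The gene D330041H03Rik on the opposite strand overlaps 914 bases, 9.75%, of its exon sequence; whether counting used strand was not given, so reads there cannot be told apart.

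Abca17, a relative of Abca3, starts 881 bases from it on the opposite strand, so the promoters printed above face away from each other. It was too low to test, with 2, 2 and 4 recovered reads in WT1 to WT3 and 11, 9 and 6 in KO1 to KO3. Abca6 and Abca9, neighbours on chromosome 11, were similarly low. Abca6 had 1, 3 and 2 reads in WT1 to WT3 and 6, 15 and 21 in KO1 to KO3, and Abca9 had 5, 4 and 1 against 7, 14 and 9. All 3 had every KO library above every WT library, as did 15.9% of untested genes with a mean of at least 5. Their means reach 5 only through the KO libraries, since the WT means were 1.92 for Abca6, 3.29 for Abca9 and 2.53 for Abca17, so a test of genes with a mean of at least 5 is given for these 3 only as a description. In that test 5.04% of all genes rose, and Abca6 passed with a log2 fold change of 1.96 (limma, adjusted p = 0.0346), while Abca17 had 1.26 (limma, adjusted p = 0.0993) and Abca9 1.27 (limma, adjusted p = 0.130). Abca17 (mean 5.74) and Abca9 (6.79) were the members nearest above the mean of 5, and Abca5 (3.39), Abcg8 (3.25), Abcc12 (2.53), Abca4 (2.48) and Abcc9 (2.33) lay below it.

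The abundant Abca genes did not pass. Abca2, a lipid transporter of late endosomes, had 9122, 7900 and 8742 normalised reads in WT1 to WT3 and 7501, 7841 and 9274 in KO1 to KO3, with overlapping groups and a log2 fold change of -0.07 ± 0.10 (SE; adjusted p in limma = 0.717), which turned to 0.015 with library totals alone. Abca7, which exports phospholipid and aids phagocytosis, had 5865, 5432 and 5422 against 5576, 6100 and 7715. Only KO3 stood well above the WT range, and the log2 fold change was 0.20 ± 0.12 (SE; adjusted p in limma = 0.317).

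**Figure D2:**
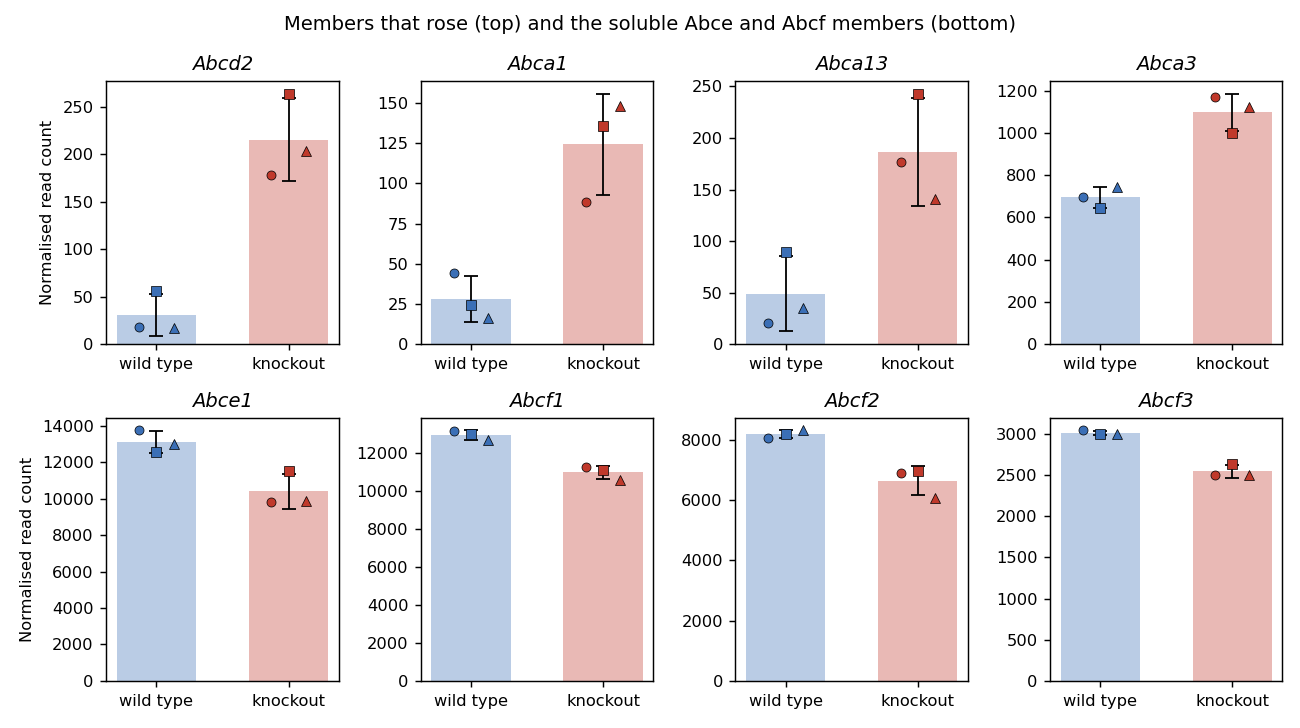
Normalised read count in wild type and knockout for the 4 risen members (top) and the 4 soluble members (bottom). Bars start at 0 and give the group mean, error bars the SD (n = 3), and points the libraries (circle, square and triangle for replicates 1, 2 and 3), each panel with its own scale. All KO points lie above all WT points in the top panels, with WT2 the highest WT point for Abcd2 and Abca13, and below them in the bottom panels.

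Abcg1 and Abcg4 pass sterol to lipoprotein particles and are LXR targets like Abca1. Abcg1 had 3652, 4310 and 3943 normalised reads in WT1 to WT3 and 3912, 4736 and 3578 in KO1 to KO3, a log2 fold change of 0.03 ± 0.11 (SE; adjusted p in limma = 0.892; 95% interval -0.22 to 0.28). The groups overlapped fully. Per exon length, Abca1 stood at 0.849%, 0.403% and 0.291% of Abcg1 in WT1 to WT3 and at 1.60%, 2.02% and 2.92% in KO1 to KO3. On that scale Abcg1 stood higher than Abca1 in all 6 libraries. Abcg4 was near 20 normalised reads in both groups, with means of 21.5 ± 4.23 (SD, n = 3) and 20.2 ± 7.37 (SD, n = 3) and a log2 fold change of -0.12 ± 0.34 (SE; adjusted p in limma = 0.861). Abcg3, a rodent-specific member, had means of 415 ± 49.1 and 414 ± 42.9 (SD, n = 3 each), and its log2 fold change lay between -0.11 and 0.08 over all alternatives.

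Of 13 tested genes of LXR signalling and sterol handling, 1 rose and 0 fell, beside 5.32% and 3.43% of all genes tested. The risen gene was Mylip, a ubiquitin ligase for the LDL receptor and an LXR target, with a log2 fold change of 0.50 ± 0.09 (SE; adjusted p in limma = 0.0118). Pltp, a phospholipid transfer protein, went from 17.8 ± 5.58 to 49.6 ± 20.9 normalised reads (SD, n = 3 each) without passing (log2 fold change 1.33; limma, adjusted p = 0.0582). Soat1, which esterifies cholesterol, had 0.22 (limma, adjusted p = 0.100) and the nuclear receptor partner Rxrb -0.20 (limma, adjusted p = 0.157). Without KO3, 0 genes of this list were called.

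Among the Abcd members, Abcd2 rose, and Abcd3 and Abcd4 did not pass. Abcd2 and Abcd3 import fatty acyl-CoAs into the peroxisome for beta-oxidation, Abcd2 taking very long chain acids, and Abcd4 works with cobalamin in lysosomes. Abcd2 (chr15:91145871-91191799, minus strand) had 18.0, 56.3 and 17.2 normalised reads in WT1 to WT3 and 178, 264 and 204 in KO1 to KO3. Each KO library was above each WT library, and WT2 was 3.20 times the mean of WT1 and WT3. WT averaged 30.5 ± 22.3 (SD, n = 3) against 215 ± 43.9 in KO (SD, n = 3), 7.06 times as high in KO. The log2 fold change was 2.93 ± 0.42 (SE; adjusted p in limma = 0.00659; edgeR adjusted p = 0.010), the highest among tested members. It was 3.45 without WT2 (limma, adjusted p = 6.67e-05) and 2.96 without KO3 (limma, adjusted p = 0.0528).

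Abcd3, which takes branched and dicarboxylic acyl-CoAs, had means of 1440 ± 55.9 and 1405 ± 53.5 (SD, n = 3 each; 95% interval of the log2 fold change -0.23 to 0.16). Abcd4 had means of 832 ± 13.7 and 849 ± 70.0 (SD, n = 3 each; interval -0.21 to 0.26). Per kilobase of exon, Abcd2 went from a mean of 5.13 to 36.2 normalised reads, while Abcd3 stood at 218 and 213, so Abcd2 remained the lower of the pair.

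Other peroxisomal genes moved in both directions. Of 20 tested genes of peroxisomal beta-oxidation, 2 rose and 3 fell, beside 5.32% and 3.43% of all genes tested. The median log2 fold change of the 20 was 0.03, beside -0.013 over all genes. Acsl1, which activates long chain fatty acids, had 0.76 ± 0.12 (SE; limma, adjusted p = 0.00682), and Decr2, a peroxisomal dienoyl-CoA reductase, 0.60 ± 0.15 (SE; limma, adjusted p = 0.0367). Pecr, a trans-enoyl-CoA reductase, fell from 103 ± 9.47 to 57.1 ± 7.63 normalised reads (SD, n = 3 each; limma, adjusted p = 0.0354). Hsd17b4, the multifunctional beta-oxidation enzyme, had -0.38 (limma, adjusted p = 0.0328) and the thiolase Acaa1a, named after its value was seen, -0.34 (limma, adjusted p = 0.0449). Of 16 peroxin genes, which build the organelle, 0 rose and 1 fell: Pex6, an ATPase of import receptor recycling, at -0.49 (limma, adjusted p = 0.0263). Pex26, its anchor on the membrane, had -0.33 (limma, adjusted p = 0.186). Of the 16 peroxin genes, 10 had a positive log2 fold change, with a median of 0.09, and 4 had an unadjusted p under 0.05 in limma. Among 9 genes of very long chain fatty acid elongation, 0 were called by limma, edgeR or DESeq2, with 2 at an unadjusted p under 0.05; Elovl7 had 1.03 at a KO mean of 16.5 normalised reads, Elovl1 -0.23 and Elovl5 -0.24. Without KO3, 0 genes of these 3 lists were called.

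**Figure D3:**
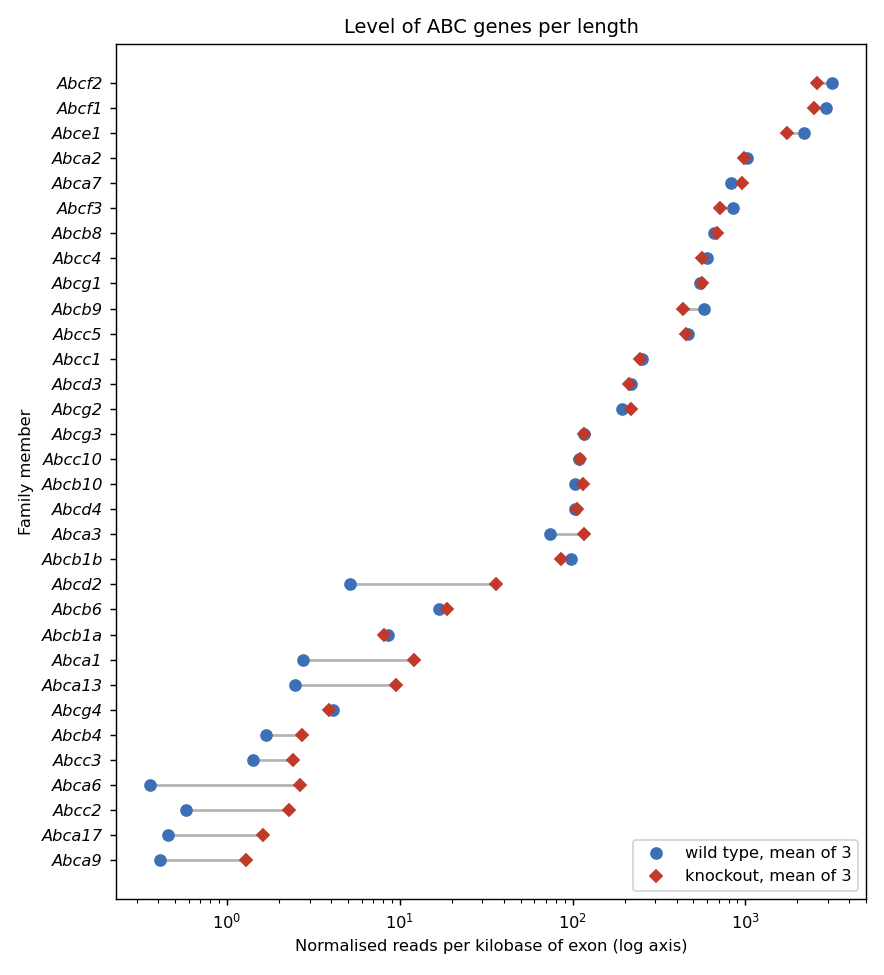
Mean normalised reads per kilobase of exon for ABC members in WT (circles) and KO (diamonds), on a log axis, each a mean of 3 libraries. Abcf2, Abcf1 and Abce1 stand highest, and Abcd2, Abca1 and Abca13 are among the low members in both groups.

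None of the 9 genes of the drug efflux list passed: limma, edgeR and DESeq2 each called 0, and 1 had an unadjusted p under 0.05. These pumps export chemotherapy drugs, glutathione conjugates or nucleotide analogues. Abcb1a and Abcb1b are the mouse copies of P-glycoprotein, and their sequences are related. The treatment of multi-mapped reads was not given, so how well reads were split between them is uncertain. Abcb1b had 803, 730 and 828 normalised reads in WT1 to WT3 and 601, 697 and 759 in KO1 to KO3, with a 95% interval of the log2 fold change from -0.48 to 0.07. Abcb1a was much lower, with 44.0, 60.2 and 35.2 against 50.1, 39.5 and 44.1 and an interval of -0.62 to 0.55. Neither separated the groups.

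Abcc1, which exports glutathione conjugates and anthracyclines, was the most tightly measured pump, with 3968, 3763 and 3702 normalised reads in WT1 to WT3 and 3477, 3808 and 3904 in KO1 to KO3. Its log2 fold change was -0.03 with an interval of -0.21 to 0.15. Abcg2, a pump of many drugs and of urate, had 1427, 1711 and 1614 against 1625, 1783 and 1941, a log2 fold change of 0.17 (limma, adjusted p = 0.352) with an interval of -0.06 to 0.41. Abcc4 and Abcc5, exporters of cyclic nucleotides and nucleoside drugs, had intervals of -0.29 to 0.10 and -0.28 to 0.23. Abcc10, a broad lipophilic drug pump, had an interval of -0.34 to 0.35. All these intervals are for single genes and not adjusted for the number of genes.

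Abcc2 and Abcc3, pumps best known in liver, were barely detected. Abcc2 had 6, 9 and 0 reads in WT1 to WT3 and 23, 18 and 16 in KO1 to KO3, with no overlap, and passed the filter on low values only through the KO libraries. Its log2 fold change was 1.93 ± 0.59 (SE; adjusted p in limma = 0.0753; edgeR adjusted p = 0.111). It was called in 3 of 16 alternatives, with a pseudocount of 8, with the replicate number as a block and without WT2. Abcc3 had 6, 11 and 8 reads against 9, 18 and 13, and a log2 fold change of 0.63 ± 0.38 (SE; adjusted p in limma = 0.339). Per kilobase of exon, the order over the 6 libraries was Abcc4 (579 normalised reads), Abcc5 (458), Abcc1 (250), Abcg2 (207), Abcc10 (109), Abcb1b (92.1), Abcb1a (8.31), Abcc3 (1.91) and Abcc2 (1.44).

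Glutathione metabolism supplies the conjugates that Abcc pumps export. Of 15 tested genes of NRF2 signalling and this metabolism, 3 rose and 0 fell, beside 5.32% and 3.43% of all genes tested. Gsr, glutathione reductase, went from 5858 ± 246 to 7607 ± 314 normalised reads (SD, n = 3 each; limma, adjusted p = 0.0185). Gsto1, a glutathione transferase, had a log2 fold change of 1.05 ± 0.24 (SE; adjusted p in limma = 0.0249), and Ggt5, which cleaves glutathione conjugates, 1.45 ± 0.30 (SE; limma, adjusted p = 0.0202). The cystine importer Slc7a11 had 0.99 ± 0.34 (SE; limma, adjusted p = 0.110). Without KO3, 0 of these were called.

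**Figure D4:**
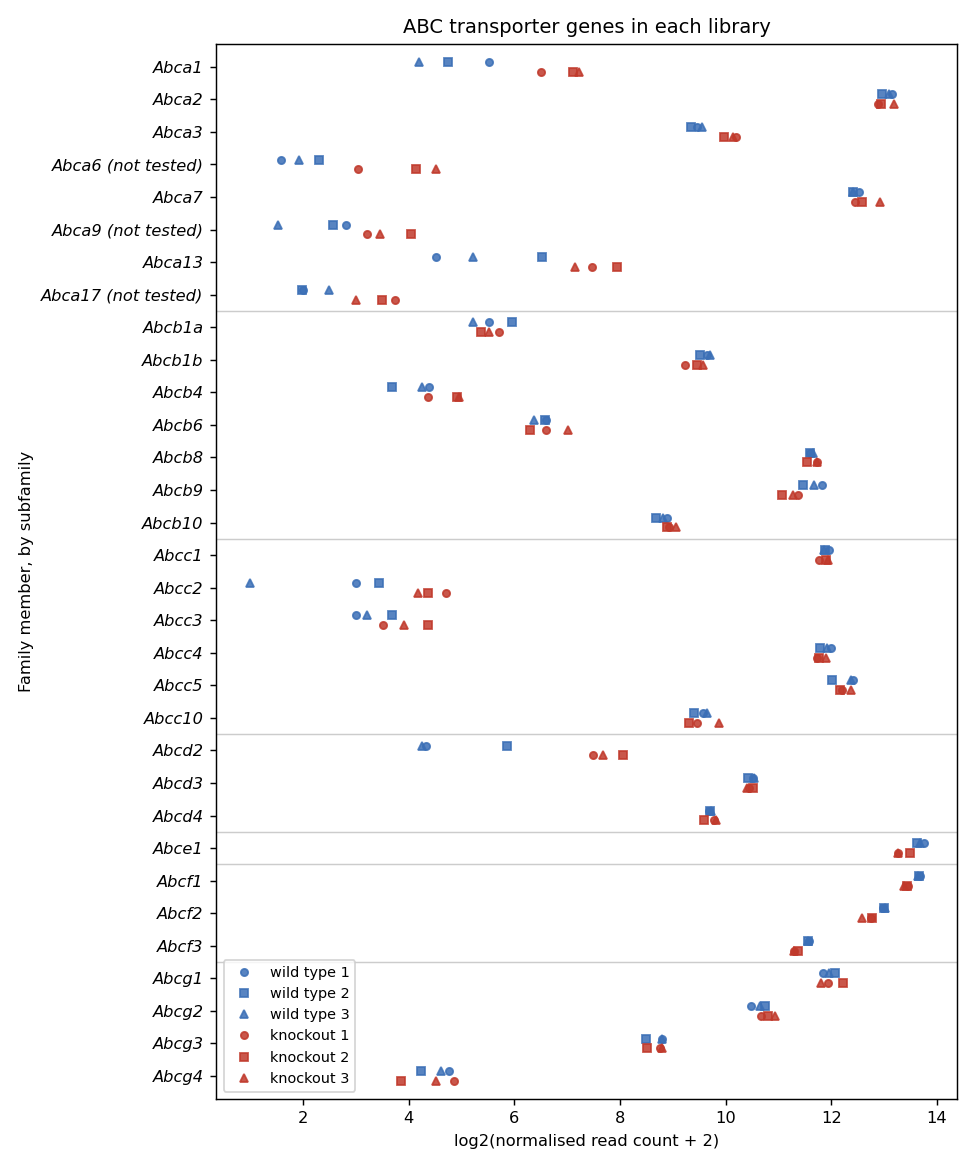
Normalised reads of ABC members in the 6 libraries on a log2(normalised read count + 2) axis; blue symbols are WT and red symbols KO libraries, with a shape for each replicate number. Most members show overlapping WT and KO points. Groups are separated for the low members Abcd2, Abca1, Abca13, Abcc2, Abca6, Abca9 and Abca17. The same holds for Abca3, Abcb9, Abce1, Abcf1, Abcf2 and Abcf3. Abcc2 passed the filter on low values only through the KO libraries.

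Of the mitochondrial Abcb members, Abcb6, Abcb8 and Abcb10 did not pass in limma, edgeR or DESeq2, and 0 had an unadjusted p under 0.05. Abcb10, which aids haem synthesis, had means of 443 ± 34 and 496 ± 33.8 (SD, n = 3 each), Abcb8 3136 ± 58.6 and 3255 ± 233, and the porphyrin transporter Abcb6 90.1 ± 7.60 and 99.7 ± 25.6. Their log2 fold changes were 0.16, 0.05 and 0.12. The transcript Gm29253 covers 55.2% of the Abcb6 exon sequence on the same strand, so Abcb6 counts are uncertain.

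Of 21 tested genes of iron-sulphur and haem synthesis, 1 rose and 2 fell, beside 5.32% and 3.43% of all genes tested. Fech, which inserts iron into haem, had a log2 fold change of 0.33 (limma, adjusted p = 0.0317), while the earlier enzymes Alad and Cpox had -0.30 and -0.57 (limma, adjusted p = 0.0419 and 0.0238). The mitochondrial carrier Slc25a39 had -0.31 (limma, adjusted p = 0.0770). In edgeR 1 rose and 1 fell, and without KO3 0 were called.

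Abcb9, a lysosomal peptide transporter related to the TAP proteins, had 3611, 2805 and 3248 normalised reads in WT1 to WT3 and 2645, 2153 and 2489 in KO1 to KO3. All KO libraries lay below all WT libraries, but the log2 fold change of -0.40 ± 0.11 (SE; adjusted p in limma = 0.0577) missed the threshold. It was called in 3 of 17 alternatives, DESeq2 (adjusted p = 0.0293), the replicate block and the fit without WT2, and not in edgeR (adjusted p = 0.0833). Tap1 and Tap2, ABC genes under other symbols that feed peptides to MHC class I, had 0.28 (limma, adjusted p = 0.0707) and -0.05 (limma, adjusted p = 0.808); limma and edgeR called 0 of both, DESeq2 called 1, and 1 had an unadjusted p under 0.05. Abcb4, a phosphatidylcholine exporter best known in liver, had means of only 15.7 ± 4.28 and 25.3 ± 5.67 (SD, n = 3 each; log2 fold change 0.63; limma, adjusted p = 0.258).

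The 4 soluble members were all lower in every KO library than in every WT library, as were 16.2% of all genes tested. Of the 4, 2 passed, while 5.87% of all genes at 1000 or more normalised reads fell. Abce1 (chr8:79683462-79711740, minus strand) splits ribosomes into subunits after termination. It had 13751, 12579 and 13013 normalised reads in WT1 to WT3 and 9817, 11526 and 9858 in KO1 to KO3. WT averaged 13114 ± 593 (SD, n = 3) against 10400 ± 975 in KO (SD, n = 3), 0.793 times as high in KO, with a log2 fold change of -0.34 ± 0.09 (SE; adjusted p in limma = 0.0445). Abcf2 (chr5:24565345-24577467, minus strand) had 8069, 8183 and 8322 against 6906, 6959 and 6086. The log2 fold change was -0.30 ± 0.08 (SE; adjusted p in limma = 0.0474).

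Both calls were near the threshold. In edgeR the adjusted p was 0.0618 for Abce1 and 0.0609 for Abcf2, in DESeq2 0.0218 and 0.0240. Neither was called with upper quartile scaling or library totals, and leaving out a library kept Abce1 in 2 of 6 fits (without WT2 and without KO2) and Abcf2 in 0 of 6. Abcf1, which acts in translation initiation, had 13151, 12983 and 12672 normalised reads in WT1 to WT3 and 11234, 11093 and 10549 in KO1 to KO3, a log2 fold change of -0.24 ± 0.07 (SE; adjusted p in limma = 0.0729; DESeq2 adjusted p = 0.0493). Abcf3 had means of 3012 ± 27.4 and 2547 ± 78.4 (SD, n = 3 each) and a log2 fold change of -0.24 ± 0.08 (SE; adjusted p in limma = 0.0801). Per kilobase of exon, Abcf2 fell from a WT mean of 3189 to 2589 normalised reads and Abce1 from 2184 to 1732.

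Of 11 tested genes of translation termination, ribosome rescue and recycling, and their initiation partners, 1 rose (5.32% of all genes) and 1 fell (3.43%). The fall was in Gspt1, the release factor eRF3a, from 11292 ± 833 to 8710 ± 534 normalised reads (SD, n = 3 each; limma, adjusted p = 0.0286). The rise was in its paralog Gspt2, from 11.6 ± 2.25 to 56.7 ± 12.8 (SD, n = 3 each; limma, adjusted p = 0.00431), which remained far lower than Gspt1 in reads. Eif2s1 and Eif2s3x, subunits of initiation factor eIF2, had -0.25 and -0.29 (limma, adjusted p = 0.120 and 0.0591). Without KO3, 1 gene of this list rose and 0 fell. Of the 11 genes, 2 had a positive log2 fold change, with a median of -0.16, and 5 had an unadjusted p under 0.05 in limma. DESeq2 called 1 risen and 2 fallen.

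**Figure D5:**
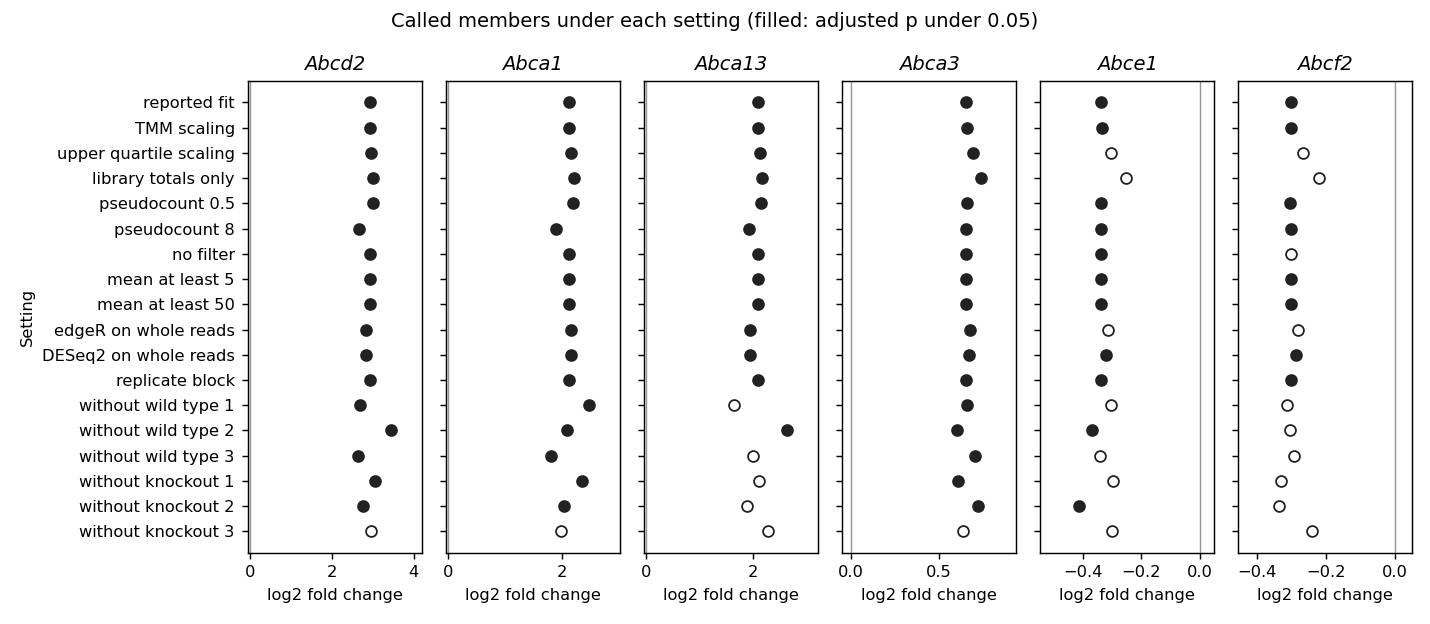
Log2 fold change of the 6 called members in the reported fit and under each alternative; filled points passed the adjusted threshold under that alternative. The direction was the same throughout for these 6, while the calls of Abce1 and Abcf2 came and went and all 6 were lost without KO3.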

How the data were processed

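PolyA RNA of 6 tumours was sequenced as paired reads from libraries made with the NEBNext Ultra RNA kit, per the labels' protocols. Per the submitters' processing notes, the tools were bcl2fastq 1.8.4, STAR 2.6.0a, featureCounts and DESeq2, with build GRCm38. The strand setting, gene annotation and treatment of multi-mapped reads were not given in the sources used here. The values the authors deposited are a signal: read counts per gene, each scaled by its library's size factor. All values (100%) were whole multiples of that step within 0.01 of a read, and the reads recovered this way served only the alternatives. Of 23314 entries, 8 without a gene name, holding at most 0.00106% of reads, were left out, and 23277 of 23306 identifiers matched GENCODE M21, from which coordinates and exon lengths (all isoforms merged) came.

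Groups were compared with limma 3.58.1 in R 4.3.3 (trended, robust variance, two-sided) on log2(value + 2) over 17993 genes with at least 10 in at least 3 libraries, fitted on all 6 libraries with group as the only term. Fold changes on this scale understate the change of low genes. Calls are at an adjusted p of 0.05 (Benjamini-Hochberg over all genes tested). The code was tested on simulated data with known changes. There limma recovered 65 of 98 genes changed 2-fold and 35 of 98 changed 1.5-fold. Of its 111 calls 11 were false (9.91%), and in edgeR 14 of 109 (12.8%), both above the threshold of 0.05. Alternatives were edgeR 4.0.16 and DESeq2 1.42.0 on recovered reads, TMM, upper quartile and library-total scaling, pseudocounts of 0.5 and 8, 3 other filters, a replicate block and leaving out each library. Summed marker levels are CPM with TMM scaling. Promoter sequences are RefSeq's, from GRCm38.p6.

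The members, companion lists and marker lists were chosen with earlier results of these data known. Named genes were Phf6, called members, the drug efflux and Abcd members, the highest and lowest uncalled member by log2 fold change in each subfamily, the members nearest the mean of 5, and up to 4 genes of smallest p in each companion list; remaining members are given to account for the family, and a few genes are counted but not reported here. Symbols absent from the table (Abcg5, Elovl3, Fdx2, Gcn1 and a few markers) were not analysed here.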

Additional observations from a re-analysis of the deposited data

How the results depend on the processing

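Abcd2, Abca1 and Abca3 were called in 16 of 17 alternatives each, Abca13 in 12, Abce1 in 10 and Abcf2 in 7, all 6 in the same direction throughout. Of the log2 fold changes of single members under these alternatives, 460 kept their direction and side of the threshold, 25 lost the threshold, 8 gained it, and 29 changed sign, all among members that were not called. The number of risen members was 4, and 0 to 5 when a library was left out. The number of fallen members was 2, against 0 with upper quartile scaling, 0 with library totals, 1 with no filter, 0 with edgeR, 4 with DESeq2, and 0 to 3 when a library was left out. Over all genes 1575 were called, 957 higher and 618 lower. Leaving out a library gave 253 to 1941 called, 180 to 1155 higher and 73 to 786 lower. The lowest count, 253, came without KO3, and 465, 665, 986 and 1121 came without WT1, WT3, KO2 and KO1. Each of these fits has fewer libraries and fewer degrees of freedom, and the highest count, 1941, came without WT2. Library totals gave 300 lower genes. The cause of these changes was not tested.

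Same-numbered WT and KO libraries had deviations that correlated at 0.012, 0.50 and 0.14 for replicates 1, 2 and 3. The 0.50 was the highest over all combinations, while WT1 correlated best with KO3 (0.18) and WT3 with KO1 (0.38). These values do not settle whether the numbers mark pairs, and the reported fit did not take them as pairs. With the replicate number as a block, 2568 genes were called, 1459 higher and 1109 lower, with 5 members risen and 3 fallen.

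Sign changes were small. With library totals alone the log2 fold change was 0.015 for Abca2, 0.049 for Abcd3, 0.047 for Abcb1a, 0.079 for Abcg3, 0.052 for Abcc1 and 0.061 for Abcc5. With upper quartile scaling it was 0.00062 for Abcb1a, 0.031 for Abcg3, 0.0030 for Abcc1 and 0.013 for Abcc5. Abcg3 had 0.014 in edgeR and 0.0093 in DESeq2. Leaving out a library gave -0.071 to 0.29 for Abcb6, -0.21 to 0.16 for Abcb1a, -0.11 to 0.084 for Abcg3, -0.35 to 0.16 for Abcg4, -0.018 to 0.094 for Abcd4, -0.066 to 0.018 for Abcc1, -0.15 to 0.051 for Abcc5, -0.082 to 0.12 for Abcg1 and -0.16 to 0.13 for Abcc10. Abca6, Abca9, Abca17 and Abcc2 rest on few reads, and the depth does not resolve small changes there.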

Other observations

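Some ABC genes lie side by side in GRCm38. On chromosome 11 Abca9, Abca6 and Abca5 share a strand, with gaps of 8.62 kb and 17.6 kb. All 3 had each KO library above each WT library. The means of Abca9 and Abca6 reach 5 only through the KO libraries. Of untested genes with a mean of at least 5, 15.9% were separated that way. Abca5, with a mean of 3.39 normalised reads, was below the mean of 5. Of all genes with a mean under 5, 14.2% were separated that way. On chromosome 5 Abcb1a, Abcb1b and Abcb4 also share a strand, with gaps of 49.6 kb and 27.4 kb. None of these 3 separated the groups, and their log2 fold changes were -0.03, -0.20 and 0.63. The ratio of Abcb1b to Abcb1a per exon length was 12.5, 8.31 and 16.1 in WT1 to WT3 and 8.23, 12.1 and 11.8 in KO1 to KO3, so the groups overlapped.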
